A study of Mus musculus with 24 samples.

Results

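The developmental myosins and myogenic regulators described here are 8 of the 14159 genes with a symbol in a bulk RNA sequencing matrix of mouse quadriceps muscle. They were taken by name and comprise Myh3, Myh8, Myog, Myod1, Myf5, Myf6, Pax7 and Mstn. All 8 were in the matrix, so none was lost to the filter on low values. The 24 libraries fell into 8 groups of 3. They came from mice of the strains C57BL/6 (here B6) and MRL/MpJ (here MRL), left uninjured or given a volumetric muscle loss (VML) injury. VML takes out a block of muscle too large to refill by itself, here from the quadriceps of young adult females, 6 to 8 weeks old at surgery. The defect received saline (the control injury), ECM (decellularized extracellular matrix of pig small intestine) or PE (polyethylene particles). The ECM was a milled powder, wetted to a thick suspension before use. Injured muscle was collected at day 21. The uninjured mice of each strain had neither injury nor implant. The whole quadriceps was taken, so each library mixes the injured region with the fibres around it. MRL is an inbred strain known for closing ear wounds with little scar and for a tendency to autoimmunity, and its RNA was read against the reference genome, which comes from B6 mice.

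Muscle fibres are repaired by satellite cells, stem cells under the sheath of the fibre that carry the transcription factor Pax7. Once activated they switch on the myogenic regulatory factors, first Myf5 and Myod1, which commit the cells to muscle, and then Myog, which drives them to differentiate, while Myf6 (also called MRF4) is the factor that mature fibres keep. New fibres first make the embryonic myosin heavy chain (Myh3) and the perinatal one (Myh8) and later replace them with adult heavy chains. Mstn encodes myostatin, a secreted factor of the TGF-beta family that is made by muscle fibres and limits their growth. Myh3 and Myh8 are therefore used as marks of recently formed fibres.

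On GRCm39, Myh3 lies on chromosome 11 from 66969126 to 66993117 and Myh8 on the same chromosome from 67167746 to 67199462, with 174628 bases between them that hold the adult heavy chain genes Myh1, Myh2 and Myh4. Myf6 and Myf5 are neighbours on chromosome 10, with 6716 bases between them (Myf5 from 107318769 to 107321995, Myf6 from 107328712 to 107330656). Myog lies on chromosome 1 from 134217707 to 134220287 and Mstn on chromosome 1 from 53100799 to 53107240. Myod1 lies on chromosome 7 from 46025870 to 46028526 and Pax7 on chromosome 4 from 139464373 to 139560839. The 250 bases before the annotated start are shown for Myog and Myh3, whose levels followed each other closely, and for Mstn, which went the other way. Capitals mark each CANNTG, the E-box letters that the myogenic regulatory factors bind, which read the same on both strands.
Myog (chr1:134217457-134217706, plus strand): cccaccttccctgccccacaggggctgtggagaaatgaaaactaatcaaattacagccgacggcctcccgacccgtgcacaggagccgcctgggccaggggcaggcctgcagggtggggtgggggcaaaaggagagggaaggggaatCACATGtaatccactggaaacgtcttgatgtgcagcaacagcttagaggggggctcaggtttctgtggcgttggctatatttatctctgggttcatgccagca
Myh3 (chr11:66968876-66969125, plus strand): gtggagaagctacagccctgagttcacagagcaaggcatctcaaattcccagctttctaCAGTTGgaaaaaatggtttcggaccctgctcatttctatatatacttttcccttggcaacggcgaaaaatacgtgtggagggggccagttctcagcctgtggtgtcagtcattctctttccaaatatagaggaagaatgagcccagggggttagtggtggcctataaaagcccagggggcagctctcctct
Mstn (chr1:53100549-53100798, plus strand): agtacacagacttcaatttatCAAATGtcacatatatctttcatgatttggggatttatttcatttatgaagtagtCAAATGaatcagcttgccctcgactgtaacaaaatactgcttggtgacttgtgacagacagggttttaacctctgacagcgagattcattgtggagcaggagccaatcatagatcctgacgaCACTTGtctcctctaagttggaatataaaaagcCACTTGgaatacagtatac
Counted back from the start, with -1 as the base before it, Myog held 1 E-box at -103 to -98, Myh3 held 1 at -191 to -186, and Mstn held 4, the nearest at -19 to -14. Myh3 and Mstn also held TATAAA at -29 to -24, where no E-box overlapped it. Of 21770 promoters of this length, 64.8% held a CANNTG and 11.9% a TATAAA on either strand. The matches describe the letters only.

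Levels are given as log2 CPM, the abundance of a gene relative to the scaled size of its library on a log2 scale, so a difference of 1 is 2-fold. A count of 0 stood at -3.65 and 3 counts at -2.33, the level that a count of 0 allows at a mean effective library size of 25149678 reads. That size was inferred from the level of the zeros, and the limit covers counting error only. All 8 genes were above that level in every library. Groups were compared with limma over the 24 libraries, and a gene was called when its p, adjusted over all 14159 genes by the Benjamini-Hochberg method, was under 0.05. The study describes the 24 samples as independent. With 3 libraries against 3, an exact permutation test of a single value cannot go below p = 0.1.

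Before the results, 2 libraries need naming. On the first principal component of all genes, which held 38.8% of the variance, saline B6 replicate 2 stood at 25.7, close to the uninjured B6 libraries (27.7 to 37.4), while the other saline B6 libraries stood at -14.3 and -39.3. PE-treated MRL replicate 2 stood at -115, where the PE-treated B6 libraries stood at -96.7, -136 and -77.2. The other 2 of its group stood at 39.1 and 27.9, and the uninjured MRL libraries at 55.0 to 73.7. In PE-treated MRL replicate 2 the 7 macrophage markers summed to a log2 level of 12.1. The other PE-treated MRL libraries had 7.77 and 7.74 and PE-treated B6 libraries 10.5 to 12.3. The 4 neutrophil markers summed to 4.43 in replicate 2, 0.87 and 1.24 in the others and 3.95 to 6.94 with PE in B6 mice. Fits without replicate 2 keep the 2 PE-treated MRL libraries less like PE-treated B6 muscle in these values. Both named libraries carry the labels of their groups and were kept, and values are also given without them where a call or the size of a difference turned on them. Unless a share of all genes is stated for such a fit, its calls are not read as particular to the 8 genes. The 16 adult fibre genes, the defining markers of the labelled tissue, were abundant in every library, with a summed log2 level of 15.4 to 18.1. In bulk RNA, fewer cells of a type and less RNA per cell cannot be told apart.

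Myh8 and Myh3, the perinatal and embryonic heavy chains, rose after injury. Over both strains and the 3 injuries, injured muscle exceeded uninjured muscle by 2.88 in Myh8 (SE 0.71, adjusted p = 0.0292) and 2.90 in Myh3 (SE 0.73, adjusted p = 0.0301). Myog, the factor of differentiation, rose by 1.98 (SE 0.49, adjusted p = 0.0292), and Mstn fell by 1.08 (SE 0.29, adjusted p = 0.0359). The other 4 genes did not pass. Myod1 differed by 0.79 (adjusted p = 0.0789), Myf6 by 0.31, Myf5 by 0.13 and Pax7 by -0.32 (adjusted p = 0.254 to 0.750 for these 3). So 4 of 8 genes were called, 3 higher and 1 lower, where 9.61% of all genes were called in this comparison. Of those genes 893 of 1361 were higher, and on libraries scaled to equal totals 1730 of 1869, with the median of all genes at 0.23 instead of 0.01.

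These calls rested on the uninjured libraries. With any of the 3 uninjured B6 libraries, or uninjured MRL replicate 2 or 3, left out, none of the 8 genes was called by limma, and without uninjured MRL replicate 1 only Myh3 was. The differences themselves stayed between 2.56 and 3.18 for Myh3, 2.71 and 3.13 for Myh8, and 1.87 and 2.10 for Myog in the fits that lost the call, with adjusted p up to 0.0897, 0.0895 and 0.0811. Mstn also lost its call without PE-treated B6 replicate 2, ECM-treated MRL replicate 3 or saline MRL replicate 1, at -1.22 to -0.98 over the 9 fits that lost it and an adjusted p up to 0.105. Without saline B6 replicate 2 and PE-treated MRL replicate 2, a choice made after seeing the data, 5 of 8 were called (26.1% of all genes). Myod1 at 0.95 then passed as well (adjusted p = 0.0117).

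**Figure D1:**
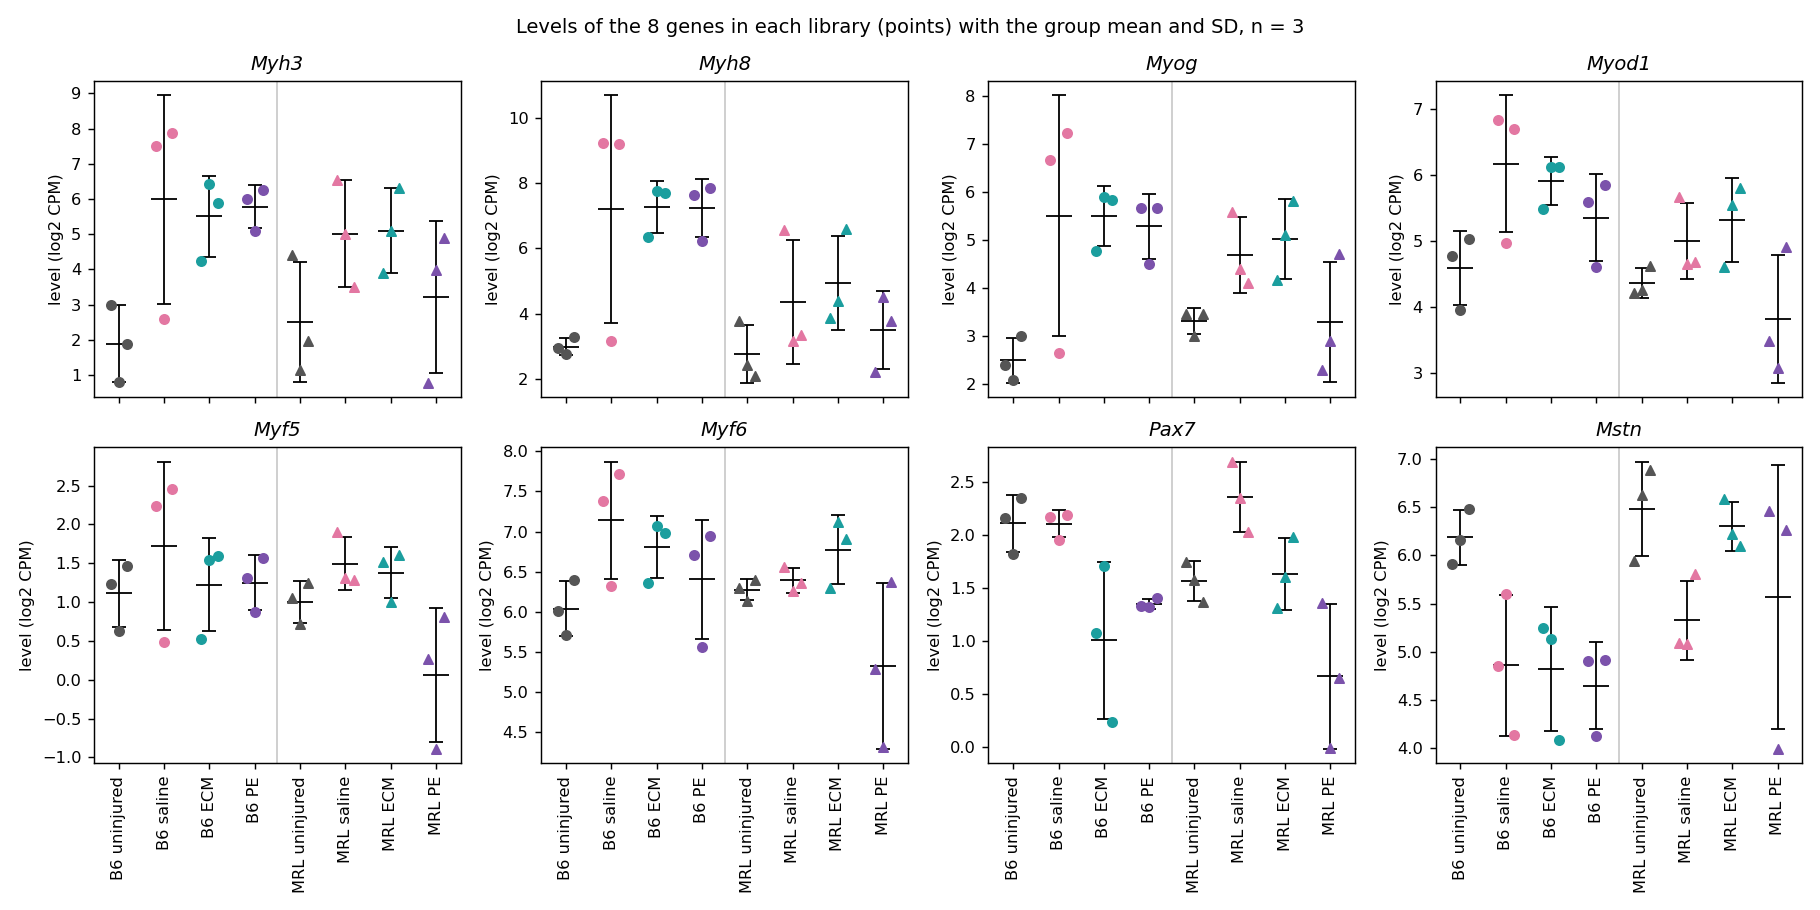
Level of each of the 8 genes (log2 CPM, 1 panel a gene, axes differ) in every library. Points are libraries (circles B6, triangles MRL), the long tick and bars are the group mean and SD of 3 libraries. Myh3, Myh8 and Myog sit high in injured B6 muscle except in 1 saline library, and Mstn sits low there.

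The library values show how Myh8 behaved in each strain. In uninjured B6 muscle Myh8 stood at 2.93, 2.75 and 3.27. It stood at 9.24, 3.16 and 9.22 after saline, at 6.36, 7.76 and 7.71 with ECM, and at 7.64, 6.22 and 7.85 with PE. Every B6 library with an implant was therefore above every uninjured library of either strain, as were the saline libraries other than replicate 2. In MRL mice Myh8 stood at 3.77, 2.42 and 2.09 without injury, at 6.56, 3.14 and 3.35 after saline, at 3.85, 4.38 and 6.58 with ECM, and at 2.20, 4.52 and 3.76 with PE. Only the ECM group was above the uninjured MRL libraries in all 3 libraries.

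Myh3 varied more among uninjured muscles. It stood at 3.00, 0.79 and 1.88 in uninjured B6 muscle, 7.51, 2.58 and 7.88 after saline, 4.23, 6.44 and 5.88 with ECM, and 6.00, 5.09 and 6.26 with PE. In MRL mice it stood at 4.41, 1.14 and 1.97 without injury, 6.54, 5.0 and 3.51 after saline, 3.91, 5.09 and 6.31 with ECM, and 0.78, 3.99 and 4.90 with PE. Uninjured MRL replicate 1 was above 6 of the 18 injured libraries, so no MRL group was free of overlap with uninjured MRL muscle.

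Together the 2 developmental myosins were a small part of heavy chain RNA. As a share of the summed CPM of Myh1, Myh2, Myh3, Myh4, Myh7 and Myh8, they made up 0.0114% to 0.0220% in uninjured B6 muscle. The share was 1.31%, 0.0163% and 2.16% in the saline B6 libraries, 0.167% to 0.672% with ECM and 0.446% to 0.589% with PE. In MRL mice it was 0.00905% to 0.0471% without injury, 0.0273% to 0.366% after saline, 0.0310% to 0.232% with ECM and 0.0102% to 0.261% with PE. The 2 genes share sequence with the adult heavy chains: of the stretches of 31 bases in the Myh8 transcript, 32.5% also occur in another gene (19.5% in Myh2), against 11.2% for Myh3 (6.26% in Myh2). The part of these shared stretches in the levels was not tested. The adult genes Myh1, Myh2 and Myh4 differed by -0.39, -1.13 and -0.54 between injured and uninjured muscle, none of them called.

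**Figure D2:**
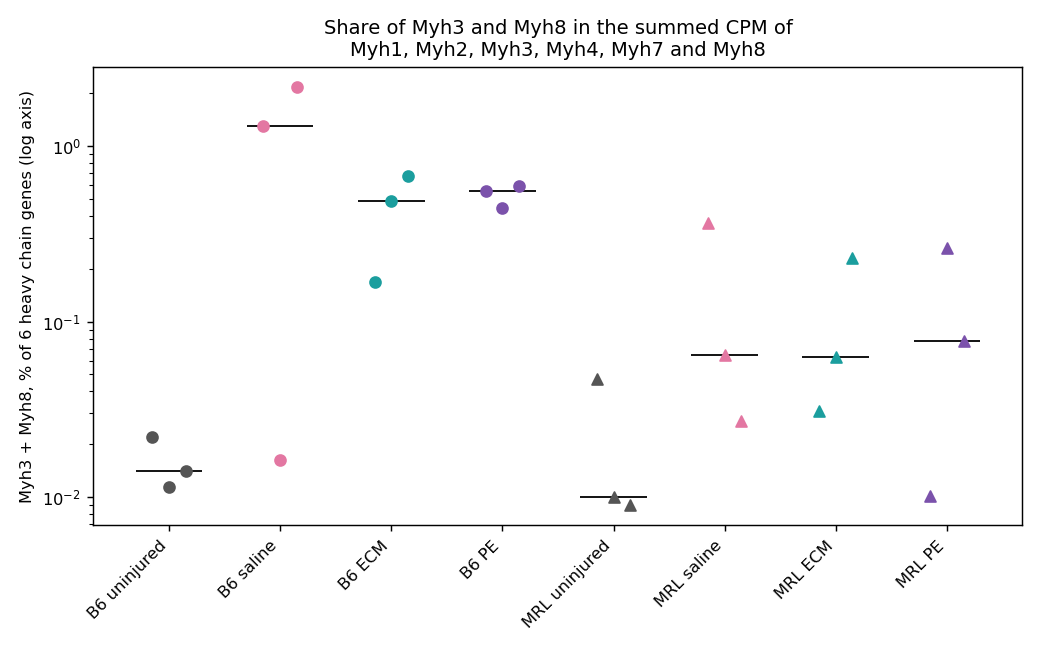
Myh3 and Myh8 as a percent of the summed CPM of 6 myosin heavy chain genes, on a log axis. Points are libraries and bars are group medians of 3. The medians are 1.31%, 0.485% and 0.557% in saline, ECM and PE B6 muscle, against 0.0645%, 0.0630% and 0.0775% in MRL muscle.

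Myog followed the myosins. In B6 mice it stood at 2.40, 2.08 and 3.00 without injury, 6.66, 2.63 and 7.21 after saline, 4.77, 5.88 and 5.82 with ECM, and 5.67, 4.50 and 5.66 with PE. In MRL mice it stood at 3.47, 2.99 and 3.47 without injury, 5.58, 4.39 and 4.10 after saline, 4.15, 5.10 and 5.80 with ECM, and 2.29, 2.90 and 4.69 with PE. Of the 18 injured libraries 15 were above all 6 uninjured ones, against 13 for Myh8 and 12 for Myh3. The 3 exceptions were saline B6 replicate 2 and PE-treated MRL replicates 1 and 2.

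Myod1, the factor of commitment, moved less. It stood at 4.78, 3.95 and 5.03 in uninjured B6 muscle, 6.83, 4.97 and 6.71 after saline, 5.48, 6.13 and 6.12 with ECM, and 5.59, 4.60 and 5.85 with PE. In MRL mice it stood at 4.20, 4.26 and 4.62 without injury, 5.67, 4.65 and 4.68 after saline, 4.60, 5.55 and 5.81 with ECM, and 3.48, 3.06 and 4.91 with PE. Myod1 was above all 6 uninjured libraries in 10 of 18 injured ones and below all of them in 2, both PE-treated MRL muscle.

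Myog stood closer to Myod1 in injured muscle. In uninjured B6 muscle the log2 level of Myog minus that of Myod1 was -2.09 ± 0.26 (SD, n = 3), and in PE-treated B6 muscle it was -0.07 ± 0.14. The ECM libraries lay between -0.72 and -0.25, also above the uninjured range of -2.38 to -1.87. In saline B6 muscle it was -0.17, -2.34 and 0.51, the middle value being replicate 2. In MRL muscle it was -1.05 ± 0.28 without injury, -0.31 ± 0.25 after saline, -0.30 ± 0.26 with ECM and -0.52 ± 0.58 with PE, and the saline and ECM libraries did not overlap the uninjured ones. The ratio itself was not tested.

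Myf5 and Myf6 differed little between injured and uninjured muscle on average, but injured libraries lay on both sides. Of the 18 injured libraries, Myf5 was above all uninjured ones in 8 and below all in 4, and Myf6 in 9 and 3. Against uninjured muscle of the strain, Myf6 differed by 1.10 in saline B6 and -0.95 in PE-treated MRL muscle, and Myf5 by 0.62 and -0.94. None of these was called by limma. Myf5 was the lowest of the 4 factors per length of transcript, at a mean of 1.03 CPM per kilobase in uninjured B6 muscle and 0.934 in uninjured MRL muscle. Myf6 was the highest, at 50.7 and 58.8 CPM per kilobase, above Myod1 at 13.3 and 10.9 and Myog at 3.80 and 6.55. In saline B6 muscle the mean of Myog was 56.2 CPM per kilobase and that of Myod1 44.1, with Myf6 at 115. On the log2 scale Myf5 ranged from 0.63 to 1.47 in uninjured muscle and from -0.89 to 2.45 in injured muscle. Myf6 ranged from 5.71 to 6.40 in uninjured muscle and from 4.31 to 7.72 in injured muscle. Both had their lowest value in PE-treated MRL replicate 2 and their highest in saline B6 replicate 3.

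Pax7 was low throughout, at 0.733 CPM per kilobase in uninjured B6 muscle and 0.496 in uninjured MRL muscle. It stood at 2.16, 1.82 and 2.35 in uninjured B6 muscle, 2.17, 1.96 and 2.19 after saline, 1.08, 1.71 and 0.24 with ECM, and 1.33, 1.32 and 1.41 with PE. The B6 libraries with an implant were all below the uninjured and the saline ones, which overlapped. In MRL mice Pax7 stood at 1.75, 1.58 and 1.37 without injury, 2.70, 2.36 and 2.03 after saline, 1.31, 1.61 and 1.99 with ECM, and 1.36, -0.01 and 0.65 with PE. The saline libraries were above, and the PE libraries below, every uninjured MRL library.

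Mstn went the other way. In B6 mice it stood at 5.91, 6.16 and 6.49 without injury, 4.85, 5.59 and 4.13 after saline, 5.24, 5.14 and 4.08 with ECM, and 4.91, 4.12 and 4.92 with PE. All 9 injured B6 libraries were below all uninjured ones, saline replicate 2 included. In MRL mice it stood at 5.94, 6.63 and 6.89 without injury, 5.09, 5.08 and 5.80 after saline, 6.59, 6.22 and 6.10 with ECM, and 6.46, 3.99 and 6.26 with PE. The saline MRL libraries were below the uninjured ones, and the ECM libraries, as well as PE replicates 1 and 3, lay within their range.

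Each injury was then set against uninjured muscle of the same strain, so the 3 comparisons of a strain share their uninjured libraries. In PE-treated B6 muscle 4 of 8 genes were called, as were 24.8% of all genes. Myh8 was higher by 4.25 (SE 1.23, adjusted p = 0.0208), Myh3 by 3.89 (SE 1.27, adjusted p = 0.0338) and Myog by 2.78 (SE 0.85, adjusted p = 0.0263), while Mstn was lower, at -1.54 (SE 0.51, adjusted p = 0.0356). The libraries of these 4 genes and of Pax7 did not overlap the uninjured ones, as was so for 51.1% of all genes. The call of Myh8 was lost without uninjured B6 replicate 1 or PE-treated B6 replicate 1 or 2, at 4.05 to 4.76 and an adjusted p up to 0.0593. Myh3 lost its call without any of these 6 libraries (3.34 to 4.44, adjusted p up to 0.0981), Myog without any but uninjured replicate 3 (2.58 to 3.17, adjusted p up to 0.0718), and Mstn without any but PE replicate 3 (-1.67 to -1.27, adjusted p up to 0.162).

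With ECM the B6 differences were of like size, at 4.29 for Myh8 (adjusted p = 0.120), 3.62 for Myh3 (adjusted p = 0.176), 2.99 for Myog (adjusted p = 0.116) and -1.37 for Mstn (adjusted p = 0.199). None of the 8 genes was called by limma, and 0.424% of all genes were called. At an unadjusted p under 0.05 there were 6 of the 8, and 2372 of the 14159 genes. The libraries did not overlap the uninjured ones in 6 of 8 genes (Myh3, Myh8, Myog and Myod1 higher, Pax7 and Mstn lower), as was so for 32.3% of all genes. Without saline B6 replicate 2, which is in neither group but enters the common spread, Myh8 (adjusted p = 0.0224) and Myog (adjusted p = 0.0209) were called. Mstn was called without PE-treated MRL replicate 2 (adjusted p = 0.0421).

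For saline B6 muscle the result turned on replicate 2. With it, no gene of the 14159 was called by limma (1751 at an unadjusted p under 0.05, 6 of the 8 among them), at differences of 4.22 for Myh8, 4.09 for Myh3, 3.01 for Myog and 1.59 for Myod1 (adjusted p = 0.250 to 0.303). Without it, only replicates 1 and 3 of the saline group were left. The differences were then 6.24 for Myh8 (SE 0.94, adjusted p = 0.00328), 5.80 for Myh3 (SE 1.15, adjusted p = 0.0125), 4.44 for Myog (SE 0.62, adjusted p = 0.00314) and 2.18 for Myod1 (SE 0.50, adjusted p = 0.0246). The share of all genes called in that fit is not given, so these calls are not read as particular to the 8 genes. Mstn differed by -1.33 with it, and its 3 saline libraries were the only ones of the 8 genes not to overlap the uninjured B6 libraries, as 15.9% of all genes did not.

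In MRL mice no member was called against uninjured muscle by limma after saline, ECM or PE, where 0.00%, 0.0141% and 9.73% of all genes were called. At an unadjusted p under 0.05 there were 2 members after saline, 0 with ECM and 2 with PE, against 439, 538 and 5115 of the 14159 genes. Myh8 differed by 1.59 after saline, 2.18 with ECM and 0.73 with PE. The saline value of Myh8 rested on saline MRL replicate 1 (6.56, against 3.14 and 3.35), and was 0.48 at its lowest with 1 library left out. On the first principal component that replicate stood at 0.07, against 51.1 and 46.7 for the others of its group. Myog differed by 1.38, 1.71 and -0.01, and Mstn by -1.16, -0.18 and -0.91. The PE values for Mstn and Myh8 turned on PE-treated MRL replicate 2, and without it they were -0.12 for Mstn (adjusted p = 0.892) and 0.22 for Myh8 (adjusted p = 0.946). After saline, 5 of 8 genes did not overlap the uninjured MRL libraries (Myog, Myod1, Myf5 and Pax7 higher, Mstn lower), against 13.0% of all genes. With ECM, Myh8 and Myog did not overlap (both higher, against 13.1% of all genes), and with PE only Pax7 did not (lower, against 38.8%). With PE, Pax7 at -0.90 had an adjusted p of 0.0785 and was called without PE-treated MRL replicate 1 (-1.25, adjusted p = 0.0326), while without replicate 2 it was -0.56 (adjusted p = 0.369).

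**Figure D3:**
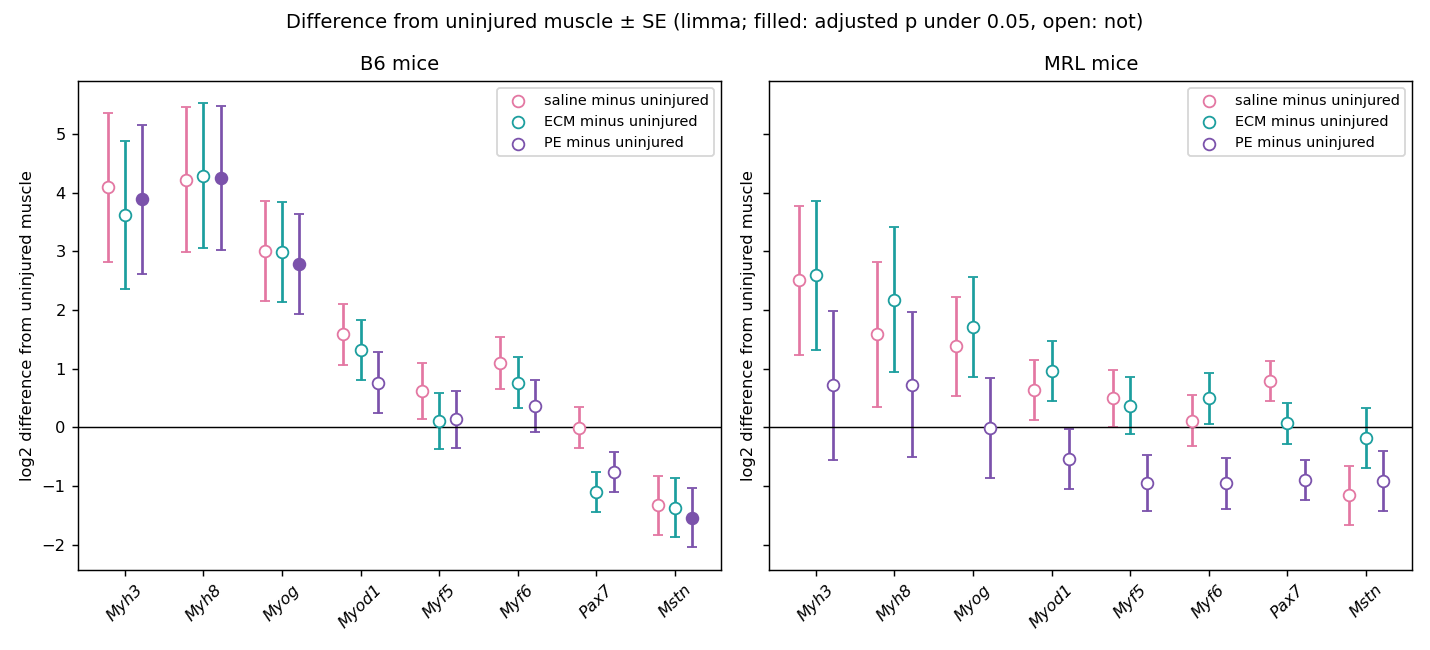
Difference of each injured group from uninjured muscle of its strain (log2) for the 8 genes, B6 left and MRL right. Points are limma differences, bars their SE, filled where the adjusted p is under 0.05. The filled points are Myh3, Myh8, Myog and Mstn in PE-treated B6 muscle.

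Averaged over the strains, PE-treated muscle had 4 of 8 genes called, in a comparison where 44.0% of all genes were. Mstn (-1.23, SE 0.36, adjusted p = 0.0114) and Pax7 (-0.83, SE 0.24, adjusted p = 0.0118) fell, and Myh8 (2.49, SE 0.87, adjusted p = 0.0274) and Myh3 (2.30, SE 0.90, adjusted p = 0.0440) rose. Mstn and Pax7 were called with any 1 library left out. Myh8 was not called without PE-treated B6 replicate 1 or 3, uninjured MRL replicate 3 or PE-treated MRL replicate 2 (2.24 to 2.39, adjusted p up to 0.0707). Myh3 was not called in 12 of 24 such fits (1.88 to 2.48, adjusted p up to 0.103). The call of Pax7 was lost on libraries scaled to equal totals, where it differed by -0.43 (adjusted p = 0.148) and the median of all genes by 0.44, against 0.04 on the deposited scale.

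Myog differed by 1.38 (adjusted p = 0.0686) and was called without saline B6 replicate 2 (adjusted p = 0.00949), saline B6 replicate 3 (0.0469) or PE-treated MRL replicate 1 (1.64, 0.0404). On equal totals 6140 of 7084 calls over all genes were higher, against 3322 of 6235 on the deposited scale.

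Averages over the strains for saline and ECM against uninjured muscle gave no member called by limma, with 5 and 6 members at an unadjusted p under 0.05 (0.00% and 0.141% of all genes called). At that unadjusted p there were 1580 and 2463 of the 14159 genes. Without saline B6 replicate 2, Myh3, Myh8, Myog and Myod1 were called after saline (3.91 for Myh8, adjusted p = 0.00426) and Myh3, Myh8 and Myog with ECM (3.23 for Myh8, adjusted p = 0.0143).

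Macrophage markers were also higher in injured muscle on average. Of 7 markers 6 were called higher in injured muscle, against 6.31% of all genes, with Cd68 at 2.29, Lyz2 at 2.00 and Emr1 at 1.96. The summed log2 level of the 7 was 6.97 to 7.50 in uninjured B6 muscle, 7.93 to 8.21 after saline, 7.81 to 9.56 with ECM and 10.5 to 12.3 with PE. In MRL muscle it was 6.35 to 7.40 without injury, 7.09 to 8.67 after saline, 7.51 to 7.80 with ECM and 7.74 to 12.1 with PE. The adult fibre genes summed to 17.5 to 17.9 in uninjured B6 muscle and 16.2 to 17.3 with PE, and to 17.6 to 18.1 in uninjured MRL muscle and 15.4 to 17.4 with PE. None of the listed markers was at or below the level of 3 counts in every library. Their part in the results was not tested. Saline B6 replicate 2, where Myh8 was not above uninjured muscle, had a macrophage sum of 8.10, between those of the other saline libraries (8.21 and 7.93). Its fibroblast markers summed to 10.5 and its mammary markers to 3.07, against 11.5 and 7.42 in saline replicate 1 and 11.7 and 8.29 in saline replicate 3.

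The implants were compared with each other. Within a strain none of the 8 genes was called by limma between ECM, PE and saline, with 0 or 1 member per comparison at an unadjusted p under 0.05 in B6 muscle and 1 to 4 in MRL muscle. At that unadjusted p there were 565 to 3563 of the 14159 genes in the B6 comparisons and 503 to 4022 in the MRL ones. Of all genes, 0.0283% were called between ECM and saline, 5.97% between PE and saline and 0.226% between ECM and PE in B6 muscle, and 0.00706%, 0.00% and 0.00% in MRL muscle. Averaged over the strains, Pax7 was lower with PE than with saline, at -1.22 (SE 0.24, adjusted p = 0.00592), and this call held with each library left out. Myf6 (-0.90, SE 0.31, adjusted p = 0.0414) and Myf5 (-0.96, SE 0.34, adjusted p = 0.0469) were lower as well, while Myod1 at -1.0 missed the threshold (adjusted p = 0.0514). Thus 3 of 8 genes were called lower, as were 9.17% of all genes (24.2% in either direction). Against PE, ECM-treated muscle was higher in Myf6 (0.92, SE 0.31, adjusted p = 0.0368) and Myod1 (1.03, SE 0.36, adjusted p = 0.0455), where 10.3% of all genes were called higher (24.9% in either direction).

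The calls of Myf5, Myf6 and Myod1 between implants were close to the threshold. Myf5 lost its call in 18 of the 24 fits that left out 1 library (adjusted p up to 0.143), Myf6 in 8 against saline and 6 against ECM (up to 0.141 and 0.127), and Myod1 in 16 (up to 0.143). Without PE-treated MRL replicate 2, the lowest library of Myod1, Myf5, Myf6, Pax7 and Mstn, Myf6 differed from saline by -0.65 (adjusted p = 0.130) and Myod1 from ECM by 0.84 (adjusted p = 0.127). Myod1 passed against saline without saline B6 replicate 2 (-1.30, adjusted p = 0.0217), PE-treated B6 replicate 3 (-1.13, 0.0391) or PE-treated MRL replicate 3 (-1.28, 0.0120). On libraries scaled to equal totals only Pax7 against saline, of the 5 calls, was left. There the median of all genes was 0.31 higher with PE than with saline, against 0.05 on the deposited scale, and 3353 of 3892 called genes were higher, against 2124 of 3423. Between ECM and saline no member was called by limma (0.0283% of all genes), nor were Myh3, Myh8, Myog or Mstn called between any of the implants. At an unadjusted p under 0.05 there were 778 of all genes and 1 member, Pax7 at -0.91 (adjusted p = 0.533). The difference in Myh8 between ECM and saline was 0.33 with an SE of 0.87, so changes of either sign were within its error.

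MRL and B6 mice differed in 3 of 8 genes on average over the 4 treatments, where 15.2% of all genes were called. Myh8 was lower in MRL muscle by 2.29 on the log2 scale (-2.29, SE 0.62, adjusted p = 0.0166), and this call held with each library left out. Myod1 was lower too (-0.88, SE 0.26, adjusted p = 0.0262), a call lost without 1 of 5 libraries (uninjured B6 replicate 3, saline B6 replicate 3, ECM-treated MRL replicate 1, saline MRL replicates 2 and 3, adjusted p up to 0.0547). Mstn was higher in MRL muscle (0.79, SE 0.25, adjusted p = 0.0410), a call lost in 14 of 24 such fits (0.68 to 0.82, adjusted p up to 0.0809). Without saline B6 replicate 2 Myog was also called lower (-0.97, adjusted p = 0.0228, against -0.61 and 0.329 with it).

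The strain difference in Myh8 was small in uninjured muscle, at -0.22, and was -2.86 after saline, -2.34 with ECM and -3.74 with PE. None of these was called, nor was any other member within 1 treatment, where limma called 2.60% of all genes in uninjured muscle, 2.51% after saline, 2.66% with ECM and 3.35% with PE. At an unadjusted p under 0.05 there were 0 members in uninjured muscle, 2 after saline, 1 with ECM and 5 with PE. Of the 14159 genes there were 1549, 1880, 1901 and 2709. In the PE groups every MRL library was below every B6 library for Myh8, Myh3 and Myf5, as 17.5% of all genes did not overlap there in either direction. Without PE-treated MRL replicate 2, Myh8 (-4.26, adjusted p = 0.0301) and Mstn (1.71, adjusted p = 0.00481) were called between the PE groups, and without replicate 3 of that group Myod1 was (-2.08, adjusted p = 0.0430). Without saline B6 replicate 2, Myh8 was called in the saline groups at -4.88 (adjusted p = 0.00439), as was Myog at -2.25 (adjusted p = 0.0468), and in the PE groups at -3.74 (adjusted p = 0.0152). That fit kept saline MRL replicates 2 and 3, whose Myh8 (3.14 and 3.35) lay within the uninjured MRL range (2.09 to 3.77). With all libraries the saline difference in Myh8 had an adjusted p of 0.318 by limma. Mstn was higher in all 3 ECM-treated MRL libraries than in any ECM-treated B6 library, with a difference of 1.48 (adjusted p = 0.163, or 0.0214 without PE-treated MRL replicate 2), as 25.8% of all genes did not overlap.

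Whether the response to injury itself differed by strain was tested as the difference of differences. None of the 8 genes passed limma in any of the 6 such tests, which called 0.00% to 0.0212% of all genes (0.00706% for ECM and 0.0212% for PE against uninjured muscle, 0.00% for the rest). For PE against uninjured muscle, the MRL response was smaller than the B6 response by 3.52 in Myh8 (SE 1.74, adjusted p = 0.456), 3.17 in Myh3 (SE 1.79, adjusted p = 0.534) and 2.80 in Myog (SE 1.20, adjusted p = 0.381). Myog and Myf6 were the 2 members at an unadjusted p under 0.05 in that test, as were 1652 of all genes. The tests for ECM against uninjured muscle and ECM against PE had 1 member each (512 and 522 of all genes). With saline B6 replicate 2 and PE-treated MRL replicate 2 both left out, a choice made after seeing the data, Myh8 passed (-4.04, SE 1.22, adjusted p = 0.0424). The PE library left out was the highest of its group in Myh8 (4.52, against 2.20 and 3.76). The share of all genes called in that fit is not given, so the call is not read as particular to Myh8. 

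The order of the groups puts the B6 injuries first for the myosins. Mean Myh8 ran from 7.28 with ECM, 7.24 with PE and 7.21 after saline in B6 mice, through 4.94, 4.35 and 3.49 with ECM, saline and PE in MRL mice, to 2.98 and 2.76 in uninjured B6 and MRL muscle. Neighbours in this order all overlapped in their libraries. The gap of 2.27 between saline B6 and ECM-treated MRL muscle was under their pooled SD of 2.68. Mean Myog ran from 5.50, 5.49 and 5.28 in saline, ECM and PE B6 muscle to 5.02 and 4.69 in ECM and saline MRL muscle. Uninjured MRL muscle came next (3.31), at a gap of 1.38 and with no overlap with saline MRL muscle, followed by PE-treated MRL (3.29) and uninjured B6 muscle (2.49). The groups further apart in this order could still overlap, since PE-treated MRL replicate 3 (4.69) lay within the saline MRL range and saline B6 replicate 2 (2.63) within that of uninjured B6 muscle. Mstn was highest in uninjured MRL muscle (6.48 ± 0.49) and lowest in PE-treated B6 muscle (4.65 ± 0.46, SD, n = 3), and neighbours in its order overlapped throughout.

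The log2 level of Myh8 minus that of Myh3 had means of 1.09 to 1.76 in the 4 B6 groups and of -0.67 to 0.27 in the 4 MRL groups. Libraries of the strains overlapped, with uninjured B6 replicate 1 at -0.07 and PE-treated MRL replicate 1 at 1.41. Since the genes share 31-base stretches with other heavy chains to different degrees, the value describes the files and was not tested further.

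Across the 24 libraries Myog correlated with Myh3 (Pearson's r = 0.93) and Myh8 (0.90), and the 2 myosins with each other (0.89). With the group means removed the values were 0.87, 0.88 and 0.87, so libraries of 1 group that were high in 1 gene tended to be high in the others. Myod1 was closest to Myf6 (0.92, and 0.91 within groups). Mstn was negatively related to Myh8 (-0.72, and -0.50 within groups). Pax7 was near 0 with Myh3 (0.06), Myh8 (-0.02) and Myog (0.07). These values are a description over libraries that share groups and the scaling of the matrix.

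**Figure D4:**
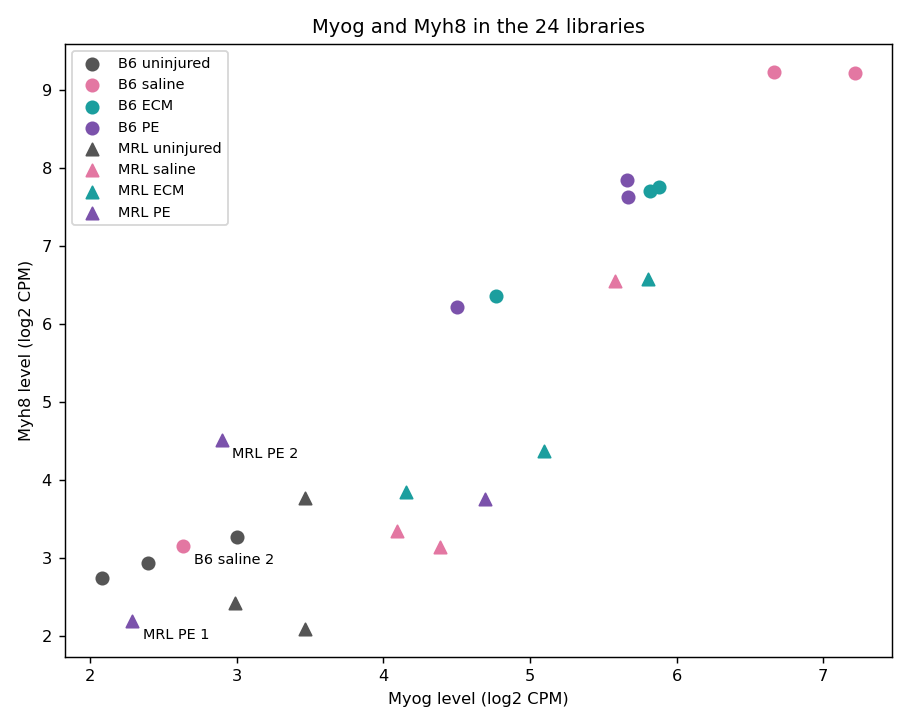
Myog against Myh8 (log2 CPM) in the 24 libraries, with colour for treatment, circles for B6 and triangles for MRL. Saline B6 replicate 2 lies among uninjured muscle, the other saline B6 libraries are highest in both genes (Myh8 at 9.24 and 9.22), and PE-treated MRL replicates 1 and 2 are low in Myog (2.29 and 2.90).

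Among all genes, those most like Myh3 over the 24 libraries were Chrnd and Chrng (r = 0.96 for both), subunits of the acetylcholine receptor, and Sln (0.95), sarcolipin, an inhibitor of the calcium pump. Those most like Myh8 were Ttc9, Slc4a3 and Myl4 (0.96, 0.96 and 0.95), of which Myl4 is the embryonic and atrial light chain. Megf10, a receptor of satellite cells and myoblasts, was most like Myog (0.96), followed by Kcnn3 and Dupd1 (0.95 for both). Hspb8 (0.96), Chrnb1 (0.94) and Ccdc136 (0.93) were most like Myod1, and Hspb8 and Trim7 (0.94 for both) and Nmrk2 (0.93) most like Myf6. For Myf5 they were Trim7 (0.88), Chrnb1 (0.85) and Wdr35 (0.83), and for Mstn Nomo1 and Ampd1 are given (0.92 for both). The values for Pax7 were lower, at 0.72, 0.72 and 0.71 for Ntng2, Frmd7 and Fgfr4, a growth factor receptor of satellite cells.

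Other genes listed for immature fibres rose with the developmental myosins. Whether newly formed fibres or fibres already present made this RNA was not tested. Of 14 such genes 8 were called higher and 1 lower in injured muscle, against 6.31% and 3.31% of all genes, and their median difference was 2.22, against 0.01 over all genes. This list, like the other lists, was chosen with earlier results of these data known, and the study itself reports Col19a1 as increased after injury. The counts are therefore a description and no separate support. Sln was higher by 4.18 (adjusted p = 0.0176), Chrng, the fetal receptor subunit, by 4.10 (adjusted p = 0.0130) and Tnnt2, the troponin T of embryonic and heart muscle, by 2.46 (adjusted p = 0.0255). Chrna1, Chrnd, Ncam1, Myl4 and Col19a1 were the others, at 2.00 to 2.38. Xirp1, a protein of the cell attachment sites, was lower (-0.97, adjusted p = 0.0455). In PE-treated B6 muscle 8 of 14 were called higher and 1 lower (median 3.02), against 14.7% and 10% of all genes. In PE-treated MRL muscle limma called 0 of 14 in either direction (median 0.29), against 5.95% and 3.78% of all genes. The difference between these counts was not tested.

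**Figure D5:**
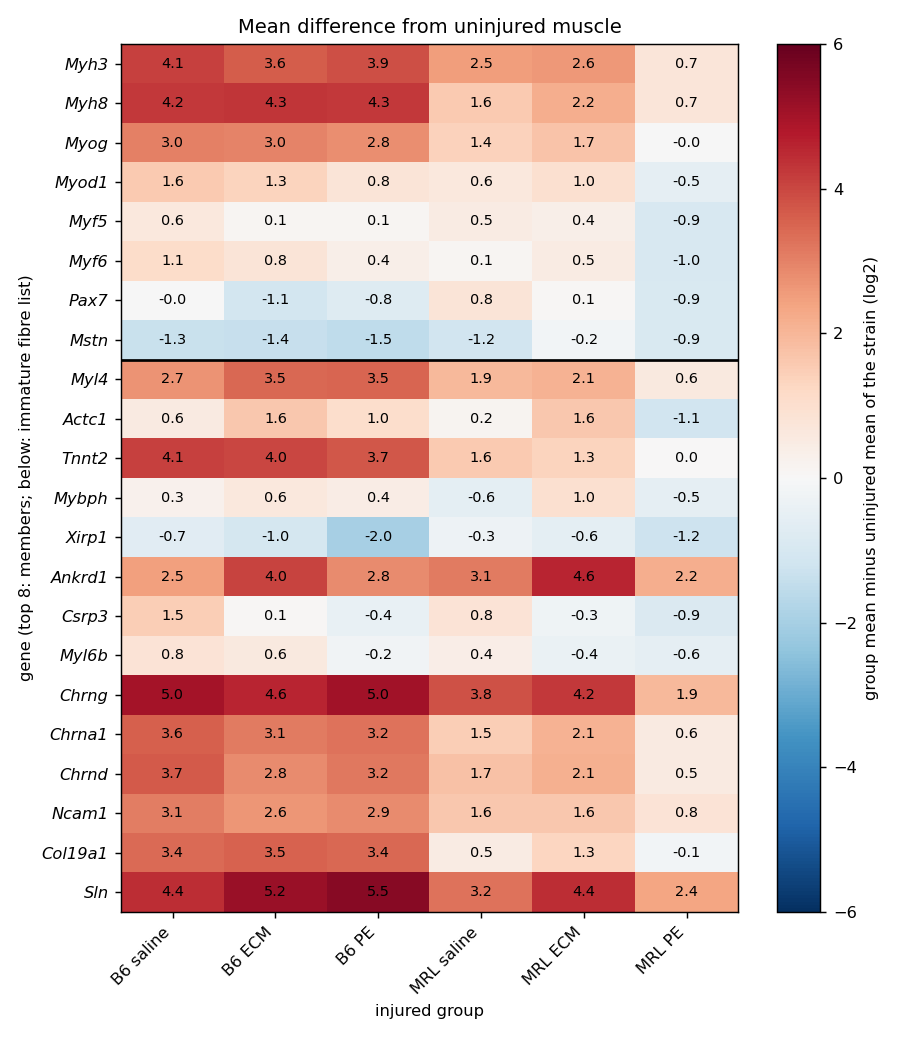
Mean difference from uninjured muscle of the same strain (log2, colour and number) in the 6 injured groups, for the 8 genes above the line and 14 immature fibre genes below it. Sln differs by 5.47 in PE-treated B6 muscle and 2.35 in PE-treated MRL muscle, Chrng by 5.02 and 1.94, and Myh8 by 4.25 and 0.73.

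Myoblast fusion genes were split. Of 13 in the matrix 2 were called higher and 1 lower, against 6.31% and 3.31% of all genes, with a median of 0.07. Mymk and Mymx, the membrane proteins that fuse myoblasts (listed under their older symbols Tmem8c and Gm7325), were higher by 3.28 (adjusted p = 0.0238) and 3.86 (adjusted p = 0.0171). Mymx ranged from -3.26 to -1.0 in uninjured muscle, around the level of 3 counts, and from -2.63 to 4.13 in injured muscle. Mymk ranged from -1.32 to 0.48 and from -1.65 to 5.06. Jam2, an adhesion molecule, was lower (-0.54, adjusted p = 0.0190).

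Of 16 satellite cell genes 1 was called, against 9.61% of all genes, and the median was 0.03. It was Cxcr4, a chemokine receptor that immune cells also carry, at 1.61 (adjusted p = 0.0291). Among 22 genes of myogenic transcription and cell cycle exit 3 were called, all higher (median 0.20), against 6.31% of all genes called higher. They were Cdkn1a and Cdkn1c, inhibitors of the cell cycle, at 1.80 (adjusted p = 0.0318) and 0.96 (adjusted p = 0.0311), and Tcf4, a partner of the myogenic factors, at 0.50 (adjusted p = 0.0461). Proliferation genes had 1 of 6 called, higher (Cdk1, 1.15, adjusted p = 0.0484), against 6.31% of all genes. With PE averaged over the strains 6 of 6 were called higher, as were 23.5% of all genes.

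Of 20 genes of the myostatin pathway 1 was called higher and 3 lower, against 6.31% and 3.31% of all genes, with a median of 0.02. Wfikkn2, a secreted binder of myostatin, was lower by 1.22 on the log2 scale (-1.22, adjusted p = 0.0416), as were the signal carriers Smad3 (-0.59, adjusted p = 0.0385) and Smad4 (-0.32, adjusted p = 0.0419). Tll1, a protease of the family that frees myostatin, was higher (0.51, adjusted p = 0.0435). Fst, the inhibitor follistatin, differed by 1.17 and was not called (adjusted p = 0.0695). The adult fibre genes had 0 of 16 called by limma in injured against uninjured muscle (median -0.36) and 10 of 16 lower with PE averaged over the strains (median -0.94), where 20.6% of all genes were called lower.

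Markers of other cells were read beside these. In injured against uninjured muscle, 2 of 5 fibroblast markers (Col1a1 and Col3a1), 1 of 4 neutrophil markers (Csf3r), 1 of 5 T cell markers (Cd4) and 2 of 7 mammary epithelial markers (Krt8 and Krt18) were called higher. Of all genes 6.31% were. By limma 0 of 5 endothelial and 0 of 6 adipocyte markers were called, with Kdr at -0.56 and Plin1 at -1.93 the farthest from 0. The adipocyte markers summed to a log2 level of 11.4 and 10.6 in PE-treated MRL replicates 1 and 3 and 7.50 in replicate 2, against 6.05 to 7.42 in PE-treated B6 muscle. Their part in the levels of the 8 genes was not tested.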

How the data were processed

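RNA was sequenced from the poly(A) fraction of whole quadriceps, with 3 samples per group and 24 libraries. The authors pseudoaligned reads with kallisto to the Ensembl GRCm39 cDNA (versions not given in the sources used here), summed transcripts to gene symbols with tximport (length-scaled TPM) and kept genes over 1 CPM in at least 3 libraries. They normalised by TMM and deposited log2 CPM values (counts per library size, with a prior count of 2). These values were used as deposited, and they hold no read counts, so library depth was known only through the level of the zeros. The study's own test, limma voom, needs counts and was not possible.

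Here limma 3.58.1 (R 4.3.3, trended prior, 1 coefficient per group, all 24 libraries) was fitted across 14159 genes, with Benjamini-Hochberg adjustment within each of 30 contrasts and a call at an adjusted p under 0.05. Tables and plots were made with Python 3.11.15, pandas 2.3.3, NumPy 2.4.6 and matplotlib 3.10.9. The fit was also run on simulated data with known changes, where each gene had the same spread in all groups and no library stood apart. That run does not bear on calls that turn on single libraries. Levels per length were CPM divided by the length of the GENCODE transcript in kilobases. Positions, promoters and transcripts were read from GRCm39 with its GENCODE annotation, and motifs were searched on both strands. The members and the gene lists were chosen with earlier results of these data known, and direction within a list is therefore a description. From each list up to 3 genes were named, those with the largest called difference between injured and uninjured muscle, or the largest difference where none was called. Chrna1, Chrnd, Ncam1, Myl4, Col19a1, Xirp1, Smad4, Fst, Myh1 and Myh4 were named after their values were seen. For each member the 3 genes with the highest Pearson correlation over 24 libraries were named, predicted genes and clones left out. A few results under these rules are not reported here. Replicate numbers occur in every group and were not treated as pairs, since 1 of 28 group pairs had all 3 residual correlations of same-numbered libraries over 0.1. That pair was the PE groups of both strains (0.10, 0.53 and 0.44), and with the replicate block none of the 8 genes was called between them either.

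The alternatives were log2(CPM + 1), a minimum mean log2 CPM of 1, equal totals, quantile normalization, library weights, no trend, the compared groups only, the replicate block and each library left out. The library weights came from the gene-by-gene method of limma. They ran from 0.0939 (PE-treated MRL replicate 2) to 5.93 (PE-treated B6 replicate 1). Saline B6 replicate 3 had a weight of 0.222, below that of saline B6 replicate 2 (0.430).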

Additional observations from a re-analysis of the deposited data

How the results depend on the processing

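Calls are counted over the 8 genes and all comparisons of a kind. Calls over all genes under the alternatives are given below for injured against uninjured muscle only. The other counts are therefore not read as particular to the 8 genes. The number called in injured against uninjured muscle was 4, with 0 to 5 when 1 library was left out. For each injury within a strain it was 4, with 16 under library weights, 7 in fits of the compared groups only, and 0 to 10 when 1 library was left out. For each injury averaged over the strains it was 4, with 14 under library weights, 10 in the compared groups only, and 2 to 12 when 1 library was left out. Between implants it was 0 within a strain (3 under library weights, 0 to 3 when 1 library was left out). Averaged over the strains it was 5, with 1 on equal totals, 3 under library weights, 1 in the compared groups only and 1 to 7 when 1 library was left out. Between strains it was 0 within a treatment (11 under library weights, 0 to 3 when 1 library was left out) and 3 over all treatments (6 under library weights, 1 to 4). For strain by treatment it was 0, with 3 under library weights and 0 whichever library was left out. With saline B6 replicate 2 and PE-treated MRL replicate 2 both left out, an alternative chosen after seeing the data, the counts were 16 for injuries within a strain, 15 averaged over the strains, 7 between strains within a treatment and 1 for strain by treatment. The cause of these changes was not tested. With the replicate block, which treats equal numbers as pairs, the counts were 4, 4, 4, 0, 6, 0, 2 and 0 in the order above. Of 2673 values of single genes under alternatives 2417 kept direction and side of the threshold, 107 passed it newly, 148 lost it and 1 reversed, namely Myf5 in injured muscle under quantile normalization (-0.13, adjusted p = 0.781). Over all genes, calls in injured against uninjured muscle were 1361, with 4391 under library weights, 726 with the block, 500 under quantile normalization and 3693 without both libraries. All 8 genes were over the level of 3 counts in every library, and the part of depth in their calls was not tested.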
